A study of Mus musculus with 12 samples.

Results

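The comparison is between GFP-positive and GFP-negative cells sorted from the olfactory mucosa of mice that received filtered air only. Its members are all 19938 genes that a probe set with exactly 1 gene symbol measured on the Mouse Gene 1.0 ST array, each represented by its probe set with the highest mean, and these are also all the genes of the series. It uses 6 of the 12 arrays: vehicle replicates 1, 2 and 4, with a GFP-positive and a GFP-negative sample each. The series comprised 18 S100a5-tauGFP mice of both sexes, 7 to 12 weeks old. Every mouse, controls included, carried the S100a5-tauGFP reporter, spent 40 hours alone in a chamber flushed with clean air at 3.1 L per minute and, from 26 hours on, was pulsed for 10 seconds every 20 minutes with filtered air (vehicle mice) or with a citrus accord (odor mice, replicates 2, 3 and 4, used here for the difference between vehicle and odor mice and in the alternatives over 12 arrays). Each sample was the sorted cells of 3 pooled mice. With 12 samples of 3 mice from 18 mice and shared replicate numbers, each pool is taken to have given both a positive and a negative sample, so the fractions were compared within pools. The sources used here do not state whether the reporter replaces the S100a5 coding sequence, its zygosity, the strain background, the sort gate or the purity.

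The olfactory mucosa holds olfactory sensory neurons, each of which carries on its cilia the product of a single odorant receptor allele, together with basal stem cells, immature neurons, sustentacular (supporting) cells, Bowman's glands, microvillous cells, glia, vessels and resident leukocytes. Odorants bound by a receptor activate the G protein Golf, adenylyl cyclase 3 and a cyclic nucleotide-gated channel, and the same cyclic AMP signal shapes the expression of axon-sorting molecules such as Kirrel2 and Kirrel3. S100a5 encodes a calcium-binding protein of mature sensory neurons and is used as a gene whose expression follows neuronal activity. Values below are deposited log2 signals, a difference is GFP-positive minus GFP-negative, and a gene is called at a Benjamini-Hochberg adjusted p below 0.05 over all 19938 genes in limma's moderated test with the pool as a block. Because each sample is a bulk of many cells, fewer cells of a type and less RNA per cell cannot be told apart in any result.

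Of the 19938 genes, 9264 were called (46.5%), 5646 higher (28.3%) and 3618 lower (18.1%) in the GFP-positive cells. These shares are the background for the counts of every gene list below. Most of the higher calls were small: 515 genes (2.58%) were called and at least 2-fold higher, while 1413 (7.09%) were called and at least 2-fold lower. The falls also reached further. At least 8-fold, 22 genes were higher and 210 lower, and at least 16-fold, 0 were higher and 53 lower, with differences running from 3.86 for Olfr472 to -5.47 for Ifitm6. The 515 and the 1413 genes moved the same way in all 3 pools. The 3 values of a fraction lay wholly apart from those of the other for 57.4% of all genes, higher for 35.3% and lower for 22% of them. The lower quartiles of all probe sets lay between 5.65 and 5.83 on the 6 arrays and serve below as a guide to low signal, since no detection calls were used. Arrays of the same fraction correlated across genes at 0.989 to 0.996, and arrays of different fractions at 0.897 to 0.927, the replicate 4 GFP-negative array giving the lowest of these. Fold changes of the 2-fold genes in replicate 4 were larger than in the others, with a slope of 1.13 against the mean of the other pairs, compared with 0.90 and 0.93. Under cyclic loess normalization the split of calls turned over, from 60.9% higher to 43.2% higher (3590 higher and 4721 lower). The median of all genes moved from 0.06 to -0.00, but some list medians moved further. That of odor transduction and mature neuron genes went from 0.51 to 0.23. That of respiratory chain and ATP synthase genes went from 0.25 to 0.00, and that of ribosomal proteins from -0.68 to -0.94. The median of all genes therefore does not set the zero for small positive differences in every list.

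**Figure D1:**
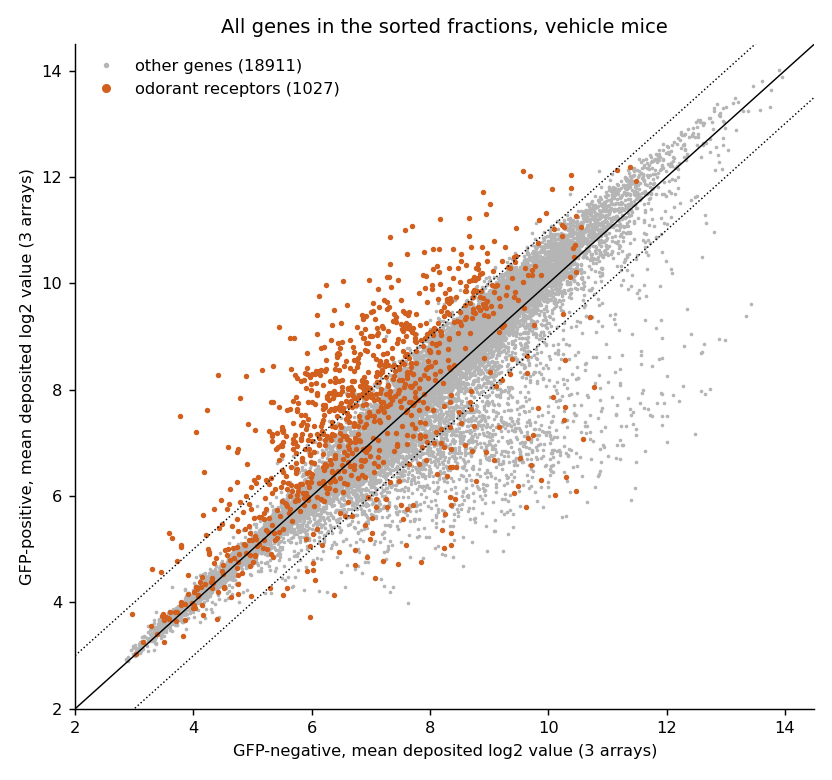
Mean deposited log2 value of each of 19938 genes in the 3 GFP-positive samples (vertical axis) against the 3 GFP-negative samples (horizontal axis) of vehicle mice, with 1027 odorant receptors in orange. The solid line marks equal values and the dotted lines a 2-fold difference. The cloud above the upper dotted line is mostly receptors (421 of the 515 genes called there), and the wide spread below the lower line is mostly other genes.

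S100a5, the gene that names the reporter, hardly separated the fractions. S100a5 measured 6.48, 6.29 and 6.29 in the GFP-positive and 6.23, 6.08 and 6.18 in the GFP-negative samples of replicates 1, 2 and 4. These values lay above the arrays' lower quartiles but below their medians, which ran from 7.04 to 7.20. Whether this low signal narrowed the difference was not tested. All 3 positive values lay above all 3 negative values, yet the difference was 0.19 (SE 0.08, adjusted p = 0.0965) in limma, and it was not called. It was called after quantile normalization (0.29, adjusted p = 0.0166) and after cyclic loess (0.22, adjusted p = 0.0430). No source used here states whether the probe set reads the transcript of the reporter allele, so its value checks the sort only in part. The stretch of 250 bases before the S100a5 start site is shown because this gene names the reporter on which the cells were sorted. It lies at chr3:90608272-90608521 on the + strand of GRCm38.p6 (RefSeq), is written 5′ to 3′, and held no match to the 3 motifs searched below.
S100a5: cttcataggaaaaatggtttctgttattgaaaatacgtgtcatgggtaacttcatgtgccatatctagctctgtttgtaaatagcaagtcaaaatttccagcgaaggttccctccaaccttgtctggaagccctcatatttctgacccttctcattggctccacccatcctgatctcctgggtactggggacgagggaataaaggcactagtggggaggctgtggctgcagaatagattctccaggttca

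Across the S100 family of small calcium-binding proteins, 3 of 16 measured members were called higher (18.8%) and 7 lower (43.8%). The shares of all genes were 28.3% and 18.1%. The S100 median was -0.16, against 0.06 for all genes. S100a9 and S100a8, which together form calprotectin of neutrophils, fell most. In replicates 1, 2 and 4, S100a8 stood at 7.79, 7.96 and 8.15 in GFP-positive and 12.56, 12.47 and 12.70 in GFP-negative cells. The GFP-positive samples stood more than 4 log2 units below the GFP-negative samples, a difference of -4.61 (SE 0.09, adjusted p = 7.23e-08) for S100a8 and -4.73 (SE 0.11, adjusted p = 8.5e-08) for S100a9. S100a11, S100a10, S100a6, S100a4 and S100a1 fell, with differences of -3.90, -2.50, -1.34, -1.18 and -0.62. The members that rose were S100z, at 0.62 (SE 0.09, adjusted p = 0.000753), S100a3, at 0.45 (SE 0.09, adjusted p = 0.00408), and S100a13, at 0.35 (SE 0.08, adjusted p = 0.00931), the last lost under cyclic loess and without replicate 2. Quantile normalization called 6 members higher.

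Odorant receptors made up most of what rose by 2-fold or more. The array measured 1027 receptors with 1 symbol, 11 of them labelled pseudogenes. Of these, 662 were called higher (64.5%, where 28.3% of all genes were) and 136 lower (13.2%, where 18.1% of all genes were), and 229 were not called. Their median difference was 0.75, against 0.06 for all genes, with quartiles of 0.10 and 1.43. Receptors accounted for 421 of the 515 genes called at least 2-fold higher (81.7%), although they were 5.15% of all genes, and for all 122 genes at least 4-fold higher and all 22 at least 8-fold higher. No other gene was called 4-fold higher in the paired comparison or in any of its 11 alternatives, and the largest rise of any other gene was that of Taar4, at 1.75. On the lower side receptors were 86 of the 1413 genes called at least 2-fold lower (6.09%), 37 of the 575 at least 4-fold lower and 13 of the 210 at least 8-fold lower. The spread of differences over receptors (SD 1.22) was wider than over all genes (SD 0.74).

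The 8 largest receptor rises each exceeded 3 log2 units. The GFP-positive samples of replicates 1, 2 and 4 had Olfr472 values of 8.32, 8.29 and 8.23, and the GFP-negative samples 4.80, 4.94 and 3.53. Its GFP-negative values all lay below their arrays' lower quartile, and the difference was 3.86 (SE 0.23, adjusted p = 5.48e-06). For Olfr854 the GFP-negative samples of replicates 1, 2 and 4 gave 5.58, 6.11 and 4.65, and the GFP-positive samples 9.47, 9.20 and 8.86. The fractions did not overlap, and the difference was 3.73 (SE 0.19, adjusted p = 2e-06). Olfr1281, Olfr1099, Olfr849, Olfr309, Olfr60 and Olfr323 followed with differences of 3.73, 3.72, 3.64, 3.55, 3.51 and 3.42, of which Olfr60 lost its call in eBayes with trend and robust. At the other end stood Olfr1297. Olfr1297 signals were 5.86, 6.17 and 6.25 with GFP and 10.48, 10.60 and 10.34 without it in replicates 1, 2 and 4. Here the GFP-negative cells carried the high values, and the difference was -4.38 (SE 0.11, adjusted p = 1.15e-07). Olfr77, Olfr460, Olfr1447, Olfr237, Olfr393, Olfr1140 and Olfr728 fell, with differences of -4.10, -3.93, -3.82, -3.58, -3.51, -3.37 and -3.29. Low signal in the fraction with less was counted as well: 89 of the 662 receptors called higher had all 3 GFP-negative values below the lower quartile of their arrays, and 38 of the 136 called lower had all 3 GFP-positive values below it. Of the 229 receptors not called, 75 lay below the lower quartile on all 6 arrays. Odorant receptors are close paralogs, and how far a probe set also reads related receptors was not measured.

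Receptor differences ran higher in replicate 4. The median receptor difference was 0.57 in pool 1, 0.60 in pool 2 and 1.02 in pool 4. The GFP-positive medians were alike, 7.62, 7.69 and 7.72, whereas the GFP-negative median was 6.96, 6.99 and 6.60, lowest in pool 4. Cyclic loess left 611 receptors higher and 138 lower, with a median of 0.65.

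**Figure D2:**
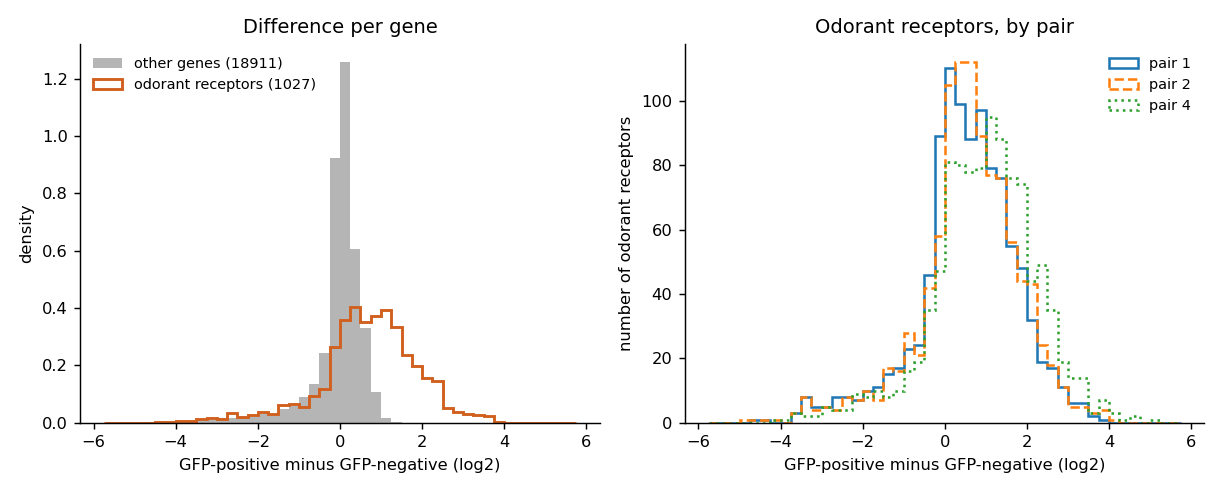
Left, the distribution of GFP-positive minus GFP-negative log2 differences, as densities in bins of equal width, for 1027 odorant receptors (line) and 18911 other genes (filled), vehicle mice. Right, the number of receptors per bin for each of the 3 pools, where the curve of pair 4 lies to the right of pairs 1 and 2 (medians 1.02, 0.57 and 0.60).

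Trace amine-associated receptors, the second family of olfactory receptors, had 6 of 13 members called higher and 2 lower (28.3% and 18.1% of all genes), with a median of 0.27. Taar4 measured 8.71, 9.44 and 8.88 in the GFP-positive and 7.43, 7.82 and 6.54 in the GFP-negative samples of replicates 1, 2 and 4. Every pool had more Taar4 signal in its GFP-positive cells, a difference of 1.75 (SE 0.18, adjusted p = 0.000129). Taar9, Taar3, Taar7b, Taar7e and Taar7d rose by 1.50, 1.06, 1.01, 0.74 and 0.54 on the log2 scale. In replicates 1, 2 and 4, Taar2 stood at 5.23, 4.60 and 5.61 in GFP-positive and 6.99, 7.53 and 6.68 in GFP-negative cells. Taar2 was thus lower in the GFP-positive cells, where it lay below the lower quartile on all 3 arrays, with a difference of -1.92 (SE 0.28, adjusted p = 0.000913), a call lost in eBayes with trend and robust. Taar6, at -0.30, lost its call in 5 alternatives, and Taar5, Taar7f, Taar8c, Taar1 and Taar8b were not called. The Taar7 and Taar8 members are near-identical copies, so their values may be shared. Vomeronasal receptors, whose neurons lie in another organ, gave little signal in either fraction: their mean level was 4.11 to 4.23 on the 6 arrays, below the lower quartiles, and 3 of 163 passed a filter that leaves out genes with a mean level below the 0.25 quantile of all genes. Of the 163, 2 were called higher (Vmn1r201 and Vmn1r24; 28.3% of all genes were) and 1 lower (Vmn2r74; 18.1%), and the median was 0.05, turning to -0.00 under cyclic loess, where 0 were higher. Without the block 5 were higher. Among genes of the guanylyl cyclase D neurons, a small sensory population, Gucy2d, which defines it, differed by 0.01 and stood between 6.73 and 6.97 in all 6 samples. Only Pde2a, the phosphodiesterase of those neurons that leukocytes and vessels also express, was called among the 6, at -3.30 (SE 0.10, adjusted p = 2.41e-07). Of the 3 vomeronasal neuron genes measured, 1 was called higher and 2 lower (median -1.23). The G protein subunit Gnao1, which many neurons express, rose by 0.44 on the log2 scale, a call lost under cyclic loess, Gng8 fell by 1.23, and Gnai2, also abundant in leukocytes, fell by 3.34 on the log2 scale.

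The genes tied to neuronal activity in sensory neurons separated the fractions more clearly than S100a5 did, whose signal lay below the array medians. Of the 8 reporter and activity-linked genes, 6 were called higher and 1 lower, with a median of 0.96. Kirrel2, an adhesion molecule through which like axons sort together, gave almost the same difference in each pool. The GFP-positive samples of replicates 1, 2 and 4 had Kirrel2 values of 12.00, 12.38 and 11.97, and the GFP-negative samples 10.75, 11.12 and 10.72. The values did not overlap, and the difference was 1.25 (SE 0.08, adjusted p = 8.38e-06). For Lrrc3b the GFP-negative samples of replicates 1, 2 and 4 gave 8.54, 8.72 and 8.27, and the GFP-positive samples 9.85, 9.92 and 9.85. Lrrc3b, a leucine-rich repeat membrane protein, was the gene of the list with the largest rise, 1.36 (SE 0.10, adjusted p = 1.75e-05). Pcdh10, a protocadherin, rose by 1.23 (SE 0.09, adjusted p = 1.9e-05), Pcp4l1, a small Purkinje cell protein 4-like protein, by 1.00 (SE 0.13, adjusted p = 0.000457), Sema7a, a membrane semaphorin, by 0.92 (SE 0.10, adjusted p = 0.000174), and Efna5, an ephrin, by 0.49 (SE 0.09, adjusted p = 0.00238), the last lost under cyclic loess. Rasgrp4, a Ras exchange factor, went the other way. Rasgrp4 signals were 8.94, 9.32 and 9.02 with GFP and 9.90, 9.68 and 10.06 without it in replicates 1, 2 and 4. Its GFP-negative values were all above its GFP-positive values, with a difference of -0.79 (SE 0.14, adjusted p = 0.00185). Rasgrp4 is also a known gene of mast cells and myeloid cells. Myeloid markers fell as well (below), and the part of these cells in the result was not tested.

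Of the 3 genes usually described as higher in less active sensory neurons, 2 were also higher in the GFP-positive cells. Epha5 measured 9.63, 9.67 and 9.88 in the GFP-positive and 8.55, 8.51 and 8.07 in the GFP-negative samples of replicates 1, 2 and 4. Epha5, an ephrin receptor, rose by 1.35 (SE 0.14, adjusted p = 0.000153), and Kirrel3, the counterpart of Kirrel2, by 0.43 (SE 0.10, adjusted p = 0.00859), which cyclic loess removed. Calb2, which encodes the calcium buffer calretinin, was the exception. In replicates 1, 2 and 4, Calb2 stood at 9.90, 9.67 and 9.73 in GFP-positive and 11.67, 11.69 and 11.57 in GFP-negative cells. The difference was -1.88 (SE 0.09, adjusted p = 1.46e-06), with every GFP-positive value below every GFP-negative value.

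**Figure D3:**
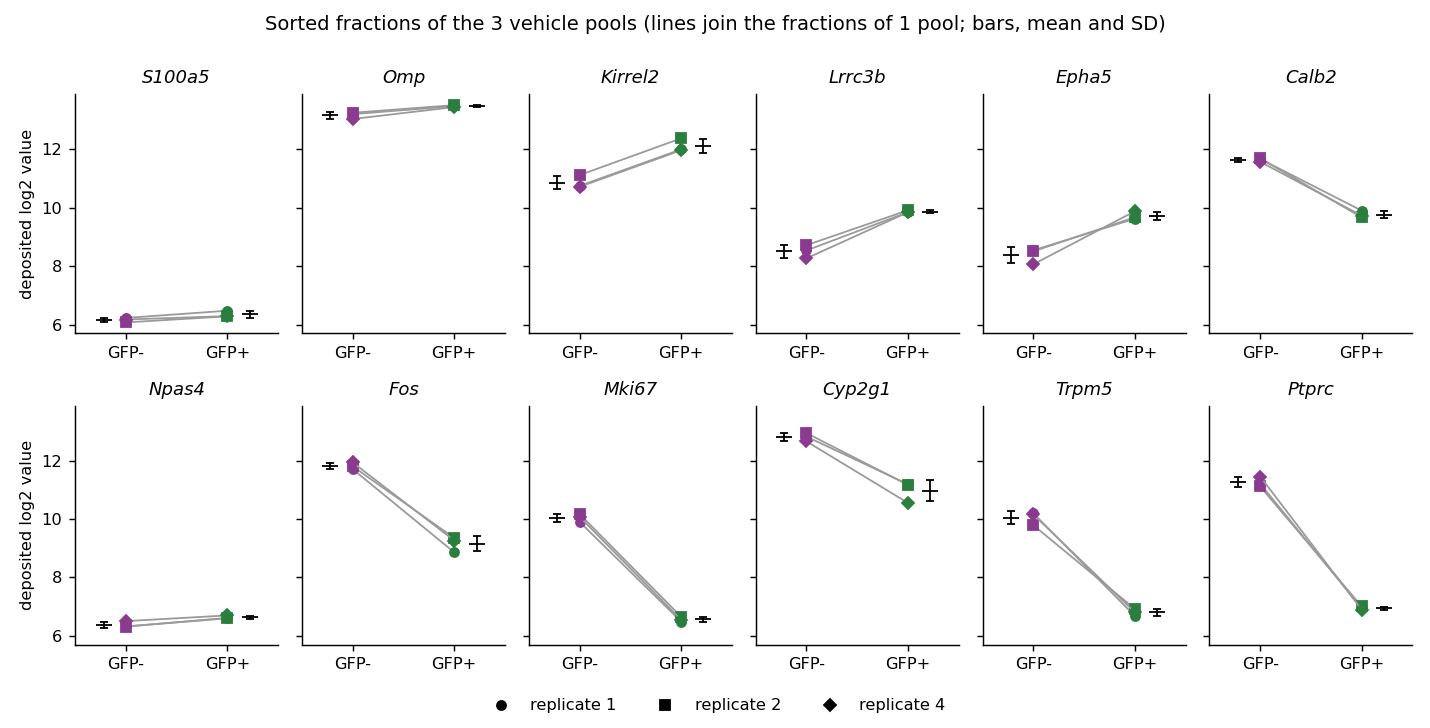
Deposited log2 values of 12 genes in each of the 6 vehicle samples, with a line joining the GFP-negative and GFP-positive sample of a pool and bars for the mean and SD of 3 samples. Kirrel2, Lrrc3b and Epha5 rise in every pool, S100a5, Omp and Npas4 shift by 0.19, 0.31 and 0.26, and Calb2, Fos, Mki67, Cyp2g1, Trpm5 and Ptprc fall in every pool.

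Both fractions carried strong signal of mature sensory neurons. The GFP-positive samples of replicates 1, 2 and 4 had Omp values of 13.48, 13.51 and 13.45, and the GFP-negative samples 13.21, 13.25 and 13.04. Omp, the olfactory marker protein of mature neurons, was higher in all 3 GFP-positive samples by 0.31 (SE 0.08, adjusted p = 0.0155), a call lost under cyclic loess and without replicate 1. Of 20 odor transduction and mature neuron genes, 18 were called higher and 0 lower, with a median of 0.51 and a range of 0.12 to 0.86. The list's mean level was 12.53 to 12.58 in the GFP-positive and 11.87 to 12.14 in the GFP-negative samples. Adcy3, the cyclase of the cascade, rose by 0.56 (SE 0.09, adjusted p = 0.00127). The channel subunits Cnga2, Cnga4 and Cngb1 rose by 0.46, 0.54 and 0.62 on the log2 scale, the chloride channel Ano2 by 0.79, and the phosphodiesterases Pde1c and Pde4a, which remove cyclic AMP, by 0.86 and 0.70. Gnal, the alpha subunit of Golf, rose by 0.27, a call lost under cyclic loess and on leaving out any 1 replicate. The receptor-trafficking genes Rtp1, Rtp2 and Reep1 rose by 0.44, 0.72 and 0.62, and Slc24a4, the sodium/calcium exchanger that ends the response, by 0.79. Gnb1 and Stoml3 were not called. Cyclic loess left 11 of the 20 higher and a list median of 0.23.

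Of 14 regulators of receptor choice, 7 were higher (50%) and 2 lower (14.3%), where 28.3% and 18.1% of all genes were. Emx2, Ebf2, Ebf3, Atf5, Ebf4, Lhx2 and Ebf1, transcription factors of the sensory neuron, rose by 0.77, 0.61, 0.51, 0.43, 0.43, 0.40 and 0.37 on the log2 scale. Cyclic loess kept 2 of these calls, Emx2 and Ebf2. Lbr, the lamin B receptor that tethers heterochromatin at the nuclear envelope and is lost as sensory neurons differentiate, behaved differently. For Lbr the GFP-negative samples of replicates 1, 2 and 4 gave 10.33, 10.43 and 10.63, and the GFP-positive samples 8.60, 8.72 and 8.66. All GFP-positive values were lower, with a difference of -1.80 (SE 0.09, adjusted p = 2.04e-06). Leukocyte and immature cell genes fell in the same samples (below), and their part in the fall of Lbr was not tested. Cbx5, a heterochromatin protein, fell by 0.36, a call lost without replicate 2. The demethylase Kdm1a, the methyltransferase Ehmt2, the kinase Eif2ak3, Ldb1 and Ddit3 were not called.

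Most presynaptic and voltage-gated channel genes rose as well, where 28.3% of all genes were called higher and 18.1% lower. Of 17 presynaptic genes, 16 were called higher and 0 lower (median 0.62), led by the synapsins Syn1 and Syn2, 0.92 and 0.89, the vesicular glutamate transporter Slc17a6, 0.90, and the vesicle protein Sv2a, 0.87. Slc17a7, the other glutamate transporter, differed by 0.00 and was not called. Of 23 voltage-gated channel genes, 18 were higher and 2 lower (median 0.64). Kcnmb3 signals were 11.12, 11.21 and 11.08 with GFP and 9.90, 10.09 and 9.38 without it in replicates 1, 2 and 4. Kcnmb3, a beta subunit of the large-conductance calcium-activated potassium channel, rose by 1.35 (SE 0.12, adjusted p = 6.41e-05), and its pore subunit Kcnma1 by 0.74. Scn4b measured 11.60, 11.76 and 11.66 in the GFP-positive and 10.38, 10.68 and 10.05 in the GFP-negative samples of replicates 1, 2 and 4. Scn4b, a beta subunit of sodium channels, rose by 1.31 (SE 0.11, adjusted p = 4.99e-05), followed by Scn3a, 0.95, and the calcium channel subunit Cacna2d1, 0.82. The calcium channel gene Cacna1e went down, -0.81 (SE 0.11, adjusted p = 0.000719), while the call of Kcnq3 at -0.23 was lost in several alternatives, so that 1 of the 23 was lower after quantile or cyclic loess normalization and on leaving out any replicate. Among 20 calcium handling genes 8 were higher and 2 lower (median 0.17), where 28.3% and 18.1% of all genes were. Under cyclic loess 6 were higher and the median was 0.04. The exchangers Slc8a1 and Slc24a2 rose by 1.15 and 0.84, and the calcium sensors Hpcal4 and Vsnl1 by 0.79 and 0.68, whereas Ncald fell by 0.40 along with Calb2.

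Genes of axon guidance and adhesion were mostly higher, 18 of 23 (28.3% of all genes), with 2 lower (18.1% of all genes) and a median of 0.52. Besides Epha5, the largest rises were in Plxna3, a semaphorin receptor, 0.93, Ncam2, an adhesion molecule of sensory axons, 0.86, Slit1, a guidance cue, 0.81, and Dscam, 0.69. The neuropilins Nrp2 and Nrp1, whose levels sort axons along the axes of the bulb, rose by 0.67 and 0.61. Plxnc1, the plexin that binds Sema7a, fell. In replicates 1, 2 and 4, Plxnc1 stood at 6.27, 5.96 and 6.07 in GFP-positive and 8.42, 8.45 and 8.82 in GFP-negative cells. Its difference was -2.46 (SE 0.12, adjusted p = 1.68e-06), opposite to that of Sema7a, and Plxnc1 is expressed by leukocytes too. Slit2, at -0.29, lost its call after quantile or cyclic loess normalization and without replicate 1 or 2, and cyclic loess left 12 of the list higher. Protocadherins, which give neurons adhesive identities, were higher in 30 of 34 cases and lower in 1, with a median of 0.76. Beside Pcdh10 stood Pcdhb9, Pcdhb17, Pcdh8, Pcdhb19 and Pcdhb7, at 1.19, 1.17, 1.08, 1.08 and 1.06. Members of the beta cluster are similar in sequence and may share signal. The GFP-positive samples of replicates 1, 2 and 4 had Pcdh20 values of 5.68, 5.82 and 5.68, and the GFP-negative samples 7.03, 7.13 and 7.19. Pcdh20 was the member that fell, -1.39 (SE 0.09, adjusted p = 6.77e-06).

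Genes of the cilia were called higher without exception among those listed. All 22 olfactory cilia genes rose, by 0.30 to 1.00 with a median of 0.76, of which cyclic loess kept 19. Cep290, of the transition zone at the base of the cilium, rose most, 1.00 (SE 0.12, adjusted p = 0.000258), followed by Rpgrip1l, 0.92, the BBSome subunits Bbs5 and Ttc8, 0.90 and 0.90, and the intraflagellar transport proteins Ift80 and Ift122, 0.86 and 0.85. The genes listed for ciliated cells of the respiratory epithelium rose alongside: 12 of 15 were higher and 0 lower, with a median of 0.70. Their mean level was 8.53 to 8.62 in the GFP-positive and 7.81 to 8.11 in the GFP-negative samples. Foxj1, a transcription factor of motile ciliated cells, rose by 0.62 (SE 0.11, adjusted p = 0.00285). The radial spoke protein Rsph4a rose by 1.02, and the dynein arm genes Dnah5, Dnah9, Dnah11 and Dnaic1 by 0.42, 0.58, 0.75 and 0.70. Which cells gave the signal of this list, and their part in the rise of the olfactory cilia genes, was not tested.

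Promoters were searched because groups of genes moved together. RefSeq windows from 250 bases before to 50 bases after the start site (GRCm38.p6) were matched by symbol for 15614 of the 19938 genes. All 3 motifs are palindromic as patterns, so a site that matches on 1 strand also matches on the other. The matches do not overlap with one another in the stretches printed. TGACGTCA, the full cyclic AMP response element bound by CREB-family factors, was present for 424 genes, 2.72% of all, for 4.36% of the 4013 genes called higher that were not chemosensory receptors, for 2.05% of the 2834 called lower and for 2.33% of the 8194 not called. Among the 66 of these higher genes with a window that were at least 2-fold higher, 1 held it (1.52%). The core recognised by Ebf factors, TCCC and GGGA with any 2 bases between them, was present for 1.19% of all genes, 1.52% of those called higher outside the receptors, 1.73% of those called lower and 0.915% of those not called. The full X-box bound by RFX factors of ciliated cells, GTTNCC and GGNAAC with any 2 bases between them, was added after the cilia genes' values had been seen. It was present for 90 genes, 0.576% of all, for 46 genes called higher outside the receptors (1.15%), 5 called lower (0.176%) and 39 not called (0.476%). None of the 566 receptors called higher with a window held TGACGTCA or the X-box, and 1, Olfr698, held the Ebf core. Only exact matches were counted, and how well the RefSeq start sites of receptors are placed was not checked.

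A choice of 5 carriers of a motif, made to show both directions and the cilia genes, is printed for the 250 bases before the start site, 5′ to 3′ on the gene's own strand, with the match in capitals. The cyclic AMP response element stood before genes of both directions: Dio2, which rose by 1.38, at chr12:90739039-90739288 on the - strand, 95 bases before the start, Syn1, which rose by 0.92, at chrX:20920919-20921168 on the - strand, 159 bases before it, and the early gene Btg2, which fell by 3.06, at chr1:134079156-134079405 on the - strand, 166 bases before it. It was also present for the myeloid gene H2-Aa, the early gene Dusp1 and the cilia gene Kif17, which are not printed. The X-box stood before 2 of the 20 olfactory cilia genes with a window. These were Bbs7, 0.78, at chr3:36613390-36613639 on the - strand, 121 bases before the start, and Mks1, 0.63, at chr11:87852965-87853214 on the + strand, 24 bases before it.
Dio2: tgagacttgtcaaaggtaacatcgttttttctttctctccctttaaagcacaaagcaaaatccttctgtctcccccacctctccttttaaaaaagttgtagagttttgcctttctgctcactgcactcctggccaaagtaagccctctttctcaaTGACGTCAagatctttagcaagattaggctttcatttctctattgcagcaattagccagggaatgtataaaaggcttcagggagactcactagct
Syn1: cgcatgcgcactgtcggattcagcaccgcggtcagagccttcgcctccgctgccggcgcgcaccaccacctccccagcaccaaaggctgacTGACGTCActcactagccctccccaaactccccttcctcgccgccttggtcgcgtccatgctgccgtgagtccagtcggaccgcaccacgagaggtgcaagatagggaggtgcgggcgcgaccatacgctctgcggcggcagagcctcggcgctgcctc
Btg2: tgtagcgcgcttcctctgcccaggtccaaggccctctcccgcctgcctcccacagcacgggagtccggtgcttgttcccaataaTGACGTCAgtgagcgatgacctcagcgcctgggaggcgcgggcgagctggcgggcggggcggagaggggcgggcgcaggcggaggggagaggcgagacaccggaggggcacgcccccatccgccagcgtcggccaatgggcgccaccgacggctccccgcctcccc
Bbs7: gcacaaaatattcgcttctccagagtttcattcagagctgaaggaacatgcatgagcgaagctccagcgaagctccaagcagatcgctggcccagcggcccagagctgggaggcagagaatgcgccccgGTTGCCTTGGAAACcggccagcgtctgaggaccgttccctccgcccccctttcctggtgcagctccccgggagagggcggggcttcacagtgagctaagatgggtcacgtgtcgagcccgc
Mks1: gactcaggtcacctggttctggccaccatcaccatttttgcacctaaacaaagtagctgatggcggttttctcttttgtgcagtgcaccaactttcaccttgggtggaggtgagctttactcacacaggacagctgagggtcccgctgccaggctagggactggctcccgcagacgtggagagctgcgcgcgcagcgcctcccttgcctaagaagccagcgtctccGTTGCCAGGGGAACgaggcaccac

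A ranking was made that left out receptors and predicted, small RNA and mitochondrial genes. In it the rises of the 20 genes ranked highest stayed between 1.19 and 1.39 on the log2 scale. For Ifit1 the GFP-negative samples of replicates 1, 2 and 4 gave 8.14, 8.34 and 7.81, and the GFP-positive samples 9.35, 9.53 and 9.57. Ifit1, an interferon-induced gene, rose by 1.39 (SE 0.12, adjusted p = 5.75e-05). Dio2 signals were 9.55, 9.74 and 9.55 with GFP and 8.46, 8.34 and 7.92 without it in replicates 1, 2 and 4. Dio2, the deiodinase that makes active thyroid hormone, rose by 1.38 (SE 0.11, adjusted p = 3.62e-05), with every GFP-positive value more than 1 log2 unit above its pool's GFP-negative value. Others of this group were Epha7, an ephrin receptor, 1.27, Rgs7, a regulator of G protein signalling, 1.28, Gpr158, a G protein-coupled receptor, 1.21, Necab1, a calcium-binding protein, 1.21, Cntnap5b, a contactin-associated protein, 1.22, and Cidea, a lipid droplet protein, 1.30. Arxes1 and Arxes2, at 1.35 and 1.26, are near-identical copies whose signal may be shared. Ube2u, Zfp229 and Arhgap42 completed the list with Kirrel2, Lrrc3b, Pcdh10, Pcdhb9, Epha5, Kcnmb3 and Scn4b.

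Markers of dividing cells and of neuronal lineage before maturity were lower or mixed. Cell cycle genes fell, 18 of 19 with 0 higher (median -1.21). The leukocyte genes given below fell in the same samples, and their part in the cell cycle result was not tested. Mki67 measured 6.49, 6.66 and 6.55 in the GFP-positive and 9.90, 10.17 and 10.08 in the GFP-negative samples of replicates 1, 2 and 4. Mki67, a proliferation marker, differed by -3.48 (SE 0.08, adjusted p = 8.66e-08), Top2a by -2.37, Kif11 by -1.99 and Ccnb2 by -1.98. Aurka was not called. Of 10 neuronal progenitor genes, 9 fell and 0 rose (median -0.81). Cxcr4, a chemokine receptor that leukocytes also carry, fell by 3.61. Kit, Sox2 and the neuronal differentiation factor Neurod1 fell, with differences of -1.79, -1.27 and -1.25, while Neurog1, at -0.27, lost its call in 5 alternatives. Of 16 immature neuron genes, 8 were lower and 5 higher (median -0.47), where 18.1% and 28.3% of all genes were. In replicates 1, 2 and 4, Gap43 stood at 8.61, 8.37 and 8.38 in GFP-positive and 9.11, 9.39 and 9.08 in GFP-negative cells. Gap43, of growing axons, differed by -0.74 (SE 0.11, adjusted p = 0.00098). Nhlh1, Marcksl1, Ablim1, Gng8, Sox11, Stmn1 and Dpysl3 fell, with differences of -1.69, -1.46, -1.41, -1.23, -0.96, -0.94 and -0.83. In contrast, Tubb3, a neuronal tubulin, and Dcx, doublecortin, were higher, by 0.75 and 0.67. Cyclic loess or leaving out replicate 1 reduced the 5 higher genes to 3. Of 12 horizontal basal cell genes 6 were lower and 0 higher (median -0.23): Icam1, Itga6 and Egfr fell, with differences of -1.16, -1.01 and -0.79, but the defining factor Trp63 and the keratin Krt14 were not called, and 1 gene was higher without replicate 4.

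Genes of supporting and glandular cells gave less signal in the GFP-positive samples. All 11 sustentacular genes fell (median -1.80). The GFP-positive samples of replicates 1, 2 and 4 had Cyp2g1 values of 11.19, 11.17 and 10.55, and the GFP-negative samples 12.82, 12.94 and 12.66. Cyp2g1, an olfactory cytochrome P450, differed by -1.84 (SE 0.11, adjusted p = 4.9e-06), and all 3 of its GFP-positive values remained above the arrays' upper quartiles, which lay between 8.63 and 8.73. Notch2, Sult1c1, Cyp1a2 and Sdc4 fell, with differences of -2.69, -2.67, -2.59 and -2.28. All 12 microvillous and tuft cell genes fell (median -1.80). For Trpm5 the GFP-negative samples of replicates 1, 2 and 4 gave 10.19, 9.79 and 10.16, and the GFP-positive samples 6.68, 6.93 and 6.81. Trpm5, a taste-type cation channel, differed by -3.24 (SE 0.13, adjusted p = 6.01e-07). Plcb2, Avil and Gnat3 fell, with differences of -2.94, -2.25 and -2.25, as did the ionocyte genes Foxi1 and Cftr, at -1.73 and -1.49. Of 12 Bowman's gland genes, 9 fell and 0 rose (median -0.76), led by Sox9, -2.08, and lysozyme Lyz1, -1.98. Leukocyte genes fell in the same samples (below), and their part in the falls of the sustentacular, tuft and gland genes was not tested. Ensheathing glia (5 of 10 lower, median -0.26), endothelial cells and pericytes (5 of 11, median -0.21) and fibroblasts (1 of 10, median -0.15) had 0 genes called higher, and the share called lower in all genes was 18.1%. Members that fell far were Rgs5 of pericytes, -4.01 (SE 0.12, adjusted p = 1.79e-07), Dcn of fibroblasts, -1.86 (SE 0.09, adjusted p = 1.49e-06), Pecam1 of endothelium, -1.62 (SE 0.09, adjusted p = 2.91e-06), and Erbb3 and Apoe, -1.50 and -1.54. The collagens Col1a1 and Col1a2, at -0.17 and -0.10, were not called, the endothelial count was 3 without replicate 1, and the fibroblast count was 3 without replicate 2.

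Of the lists described, those of leukocytes had the lowest medians, apart from the lymphoid list. All 7 pan-leukocyte genes were lower (median -3.96), as were all 15 neutrophil (median -4.42), all 19 macrophage and myeloid (median -2.91) and all 12 lymphoid genes (median -1.20). Ptprc signals were 6.95, 7.01 and 6.90 with GFP and 11.21, 11.12 and 11.45 without it in replicates 1, 2 and 4. Ptprc, which encodes CD45, had GFP-negative values far above all GFP-positive ones and differed by -4.31 (SE 0.10, adjusted p = 9.02e-08). The mean level of the 7 pan-leukocyte genes was 7.54 to 7.68 in the GFP-positive and 11.44 to 11.72 in the GFP-negative samples. Mmp8, a neutrophil collagenase, differed by -5.31 (SE 0.17, adjusted p = 2.75e-07), Retnlg by -4.72, Ly6g by -4.67 and Cxcr2 by -4.46. Among myeloid genes the class II genes H2-Aa, H2-Ab1 and Cd74 fell, with differences of -4.50, -4.19 and -3.94, as did Itgam, an integrin, at -4.29. Ms4a1 measured 5.57, 6.04 and 6.07 in the GFP-positive and 10.48, 10.74 and 10.73 in the GFP-negative samples of replicates 1, 2 and 4. Ms4a1, the B cell antigen CD20, differed by -4.76 (SE 0.09, adjusted p = 7.23e-08) and Cd79a by -4.20 (SE 0.14, adjusted p = 3.23e-07), compared with -1.31 for the T cell gene Cd3e and -0.48 for Cd8a. Ifitm6, Chil3, Cd24a, Adgrg6, Anxa1, Trem1, Stk17b, Arhgdib, Igsf6 and Ly6a2 were also among the 20 largest falls, between -5.47 and -4.43. Receptors and predicted, small RNA and mitochondrial genes were left out of this ranking too. Of 4 erythroid genes measured, 3 were lower, with Slc4a1 at -2.60.

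**Figure D4:**
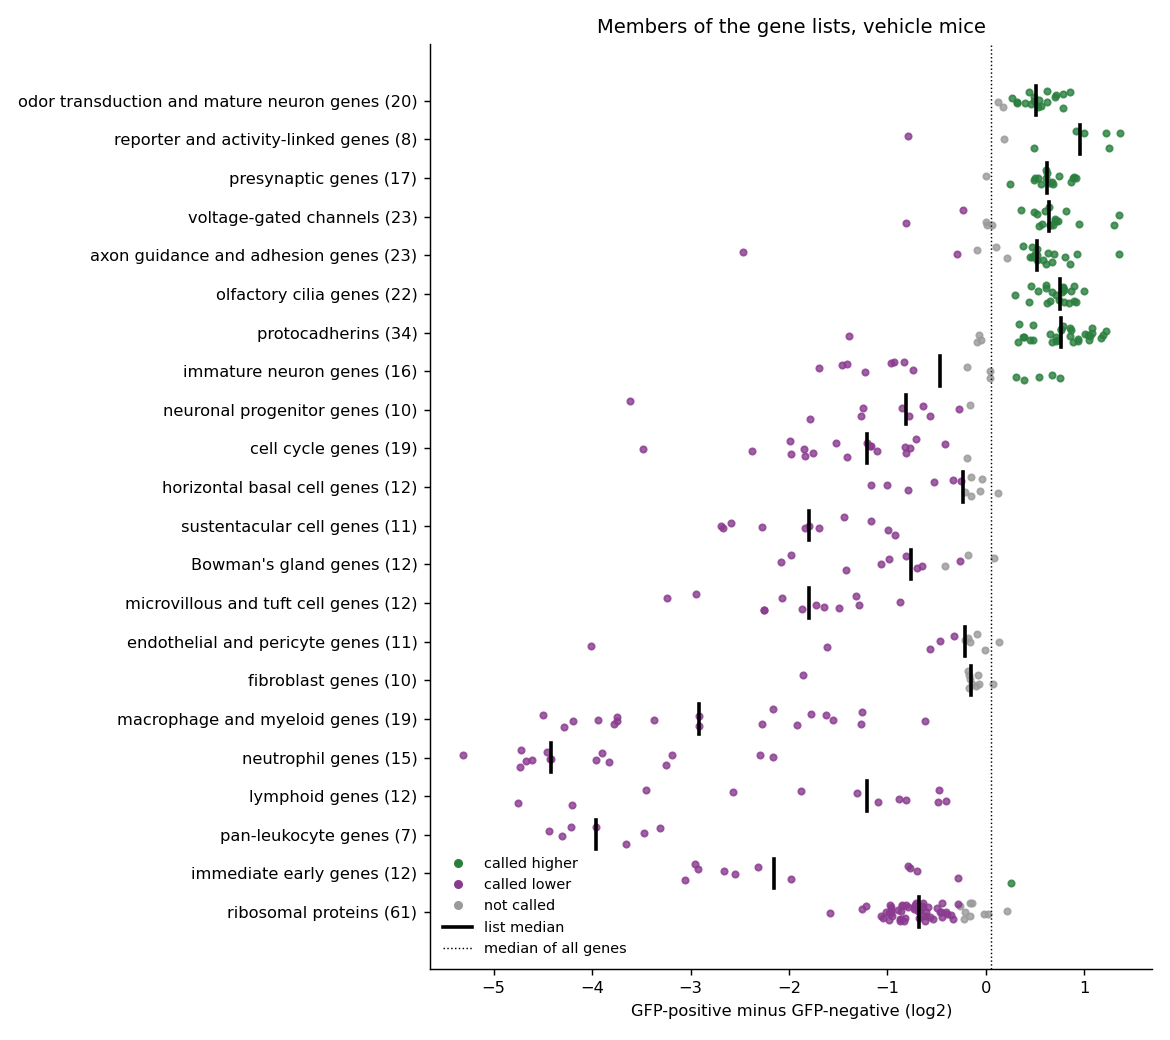
GFP-positive minus GFP-negative log2 difference of each measured member of 22 gene lists in vehicle mice (3 pools), each point a gene colored by its call, with the list's median as a bar, the median of all genes (0.06) as a dotted line and the number of members in parentheses. The medians of the mature neuron, activity-linked, presynaptic, channel, axon guidance, ciliary and protocadherin lists lie to the right of the dotted line. Those of the immature neuron, progenitor, leukocyte, supporting cell, cell cycle and early gene lists lie to its left.

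Immediate early genes, which neurons and many other cells transcribe within minutes of stimulation, were lower in the GFP-positive cells in all but 1 case: 11 of 12 fell and 1 rose (median -2.15). In replicates 1, 2 and 4, Fos stood at 8.86, 9.35 and 9.26 in GFP-positive and 11.71, 11.80 and 11.94 in GFP-negative cells. Fos, a transcription factor, differed by -2.66 (SE 0.10, adjusted p = 4.91e-07). Btg2, Nr4a1, Fosb, Atf3, Egr1 and Junb fell, with differences of -3.06, -2.95, -2.93, -2.54, -2.32 and -1.98. The neuron-restricted Npas4 was the exception. The GFP-positive samples of replicates 1, 2 and 4 had Npas4 values of 6.60, 6.62 and 6.70, and the GFP-negative samples 6.33, 6.32 and 6.51. The ranges did not overlap, and the difference was 0.26 (SE 0.08, adjusted p = 0.0324), a call lost without replicate 1 and without replicate 2, as was that of Jun at -0.28. These falls ran alongside those of the leukocyte genes given above, whose part in them was not tested.

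Among housekeeping groups, ribosomal protein genes fell and respiratory chain genes rose slightly. Of 61 ribosomal protein genes 52 were lower and 0 higher (median -0.68). For Rplp0 the GFP-negative samples of replicates 1, 2 and 4 gave 11.80, 12.07 and 12.12, and the GFP-positive samples 10.40, 10.45 and 10.38. Rplp0, of the ribosomal stalk, differed by -1.59 (SE 0.09, adjusted p = 5.51e-06), and Rps21 and Rps20 by -1.26 and -1.22. Leukocyte and cell cycle genes fell in the same samples, and their part was not tested. Of 78 respiratory chain and ATP synthase genes 38 were higher and 4 lower (median 0.25), with Ndufb6 and Ndufa9 of complex I at 0.64 and 0.61 and the testis-type Cox6b2 at -0.47. This balance was not held under cyclic loess, where 10 were higher and 9 lower with a median of 0.00, and without replicate 1 the higher count was 20. On leaving out any 1 replicate, 1 or 2 were lower.

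The large sort differences of vehicle mice had the same sign in odor mice. Of the 5646 genes called higher in vehicle mice, 4803 were also called higher in odor mice, and 3210 of the 3618 called lower were called lower there. The 515 and 1413 genes past 2-fold all kept their sign in odor mice, and 0 were called the opposite way. For receptors past 2-fold, 412 of 421 were called higher again and 83 of 86 lower again. The test of the difference itself, over all 12 arrays with the 6 pools as a block, called 0 of 19938 genes in limma (0%). An unadjusted p below 0.05 was reached by 932 genes, less than the share of 0.05 expected if no gene differed. The gene nearest to a call was Olfr747, with -0.16 in vehicle mice and 2.02 in odor mice, a difference of 2.17 (SE 0.21, adjusted p = 0.0526). Olfr747 signals were 5.88, 6.33 and 6.22 with GFP and 6.37, 6.53 and 5.99 without it in replicates 1, 2 and 4. The fractions of vehicle mice overlapped for this receptor. Cables2 differed by -2.14 in vehicle and -1.46 in odor mice, Olfr1208 by -0.73 and -1.99, Olfr292 by -0.20 and -1.53, and Olfr420 by 1.24 and 0.15, each with an adjusted p of 0.819 for the difference. S100a5 was 0.31 in odor mice against 0.19 in vehicle mice, a difference of 0.12 (SE 0.12, adjusted p = 0.929), and Npas4 was 0.61 against 0.26 (limma adjusted p = 0.917).

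**Figure D5:**
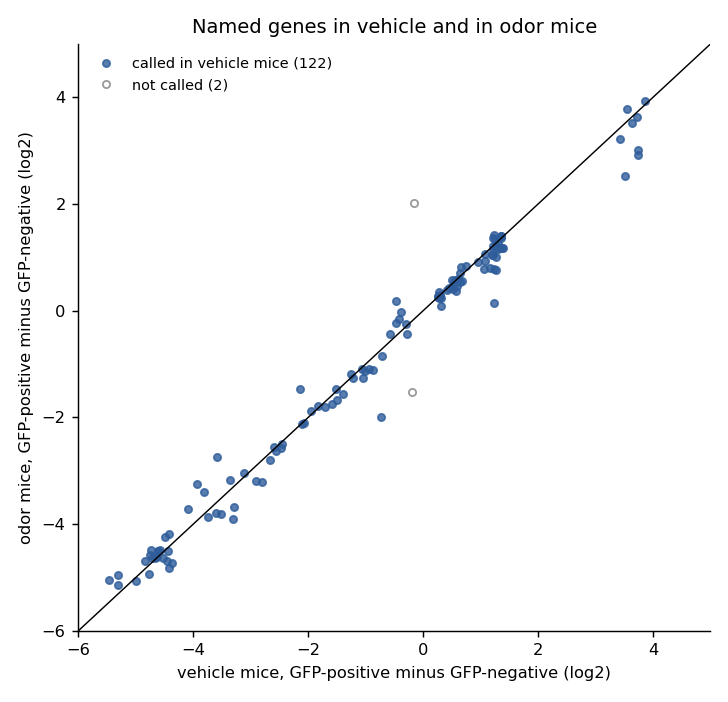
GFP-positive minus GFP-negative log2 difference in odor mice (vertical axis) against vehicle mice (horizontal axis), 3 pools each, for 124 genes named by the rule for large changes, receptors and the difference between treatments. Filled points were called in vehicle mice and open ones were not, and the line marks equal values. Most points lie near the line, and Olfr747, at -0.16 and 2.02, lies farthest above it.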

How the data were processed

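Each sample's RNA was hybridised to 1 Mouse Gene 1.0 ST array. The authors deposited log2 values for each probe set, and the submitters' processing notes name Affymetrix Expression Console. The sources used here do not give its version, summarization, background method or scaling. Of 35556 probe sets, 21789 had 1 symbol, 1621 several and 12146 none, and 21698 gene identifiers matched the reference. For 999 genes with several probe sets the highest mean was kept, leaving 19938 genes, with no low-value filter. The 6 vehicle arrays were fitted in limma 3.58.1 (R 4.3.3) with lmFit and eBayes, the pool as a block, two-sided, Benjamini-Hochberg adjusted. Scripts were tested on simulated data.

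Pairing rests on the replicate numbers in the titles and on 12 samples of 3 mice coming from 18 mice. Same-numbered deviations correlated at 0.11, 0.07 and 0.11, and other vehicle pairings at -0.13 to 0.06. The sources do not say how mice were assigned to pools.

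The members, lists and motifs were chosen with earlier results of these data known. The naming rule took S100 members, the 20 largest rises and 20 largest falls, and the 8 largest receptor rises and falls. The rankings of 20 left out receptors and predicted, small RNA and mitochondrial genes. The rule also took trace amine receptors, members of lists of up to 30 genes and the 6 largest of longer lists each way. Genes with the 5 smallest interaction p-values completed it. The report gives part of the named genes. Olfr698, Olfr178, Olfr901 and Olfr1020 were named after their values were seen. Alternatives covered the block, 12 arrays, quantile and cyclic loess normalization, a low-value filter, probe set means, eBayes with trend and robust, and each replicate left out. Array number limits precision. Tables and figures used Python 3.11.15 with pandas 2.3.3, numpy 2.4.6 and, for drawing, matplotlib 3.10.9.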

Additional observations from a re-analysis of the deposited data

How the results depend on the processing

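The 5646 higher and 3618 lower calls moved with the processing as follows. Without the replicate block they were 5733 and 3655, and over all 12 arrays with the 6 pools as a replicate block 5914 and 3599, so the pairing moved neither count by 1.5 times. Cyclic loess gave 3590 higher genes. Leaving out 1 replicate gave 4372 to 4970 higher, 3167 to 3314 lower, 399 to 599 at least 2-fold higher and 1381 to 1469 at least 2-fold lower. Of the 515 genes past 2-fold higher 472, and of the 1413 past 2-fold lower 1398, kept their direction and call in every alternative that tested them, and eBayes with trend and robust kept 473 of the 515. Of 430 called genes covered by the naming rule, 363 kept direction and call in every alternative that tested them. Cyclic loess kept 391 of the 430, and it turned Calm2 to -0.0024, Gnal to -0.0081, Ift20 to -0.0020, Sult1d1 to -0.0088 and Hdac2 to -0.24 (called). For these the cause was not tested.

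The difference between odor and vehicle mice, with 0 calls, gave 1 call without the replicate block (Olfr747, adjusted p = 0.0186 in limma) and 0 to 2 on leaving out 1 replicate, the most without odor replicate 3 (Olfr1020 and Olfr901). Without odor replicate 2 and without vehicle replicate 4 the call was Olfr747, and without vehicle replicate 1 it was Olfr178. Low signal limits folds of receptors in the fraction that lacks them.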

Other observations

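Other gene families measured in the same comparison are given here as values. Of 22 interferon-induced genes, 3 were called higher and 6 lower (median -0.15), where 28.3% and 18.1% of all genes were. Ifit1, Ifit2 and Mx2 rose by 1.39, 1.03 and 0.53 on the log2 scale, whereas the membrane proteins Ifitm6, Ifitm3, Ifitm2 and Ifitm1 fell, with differences of -5.47, -4.40, -3.65 and -1.81, and the transcription factor Irf7 fell by 1.23. Oas1a, Oas3, Mx1 and Ifit3 were not called. Of 51 chemokine and chemokine receptor genes 24 were lower and 2 higher (median -0.25): Cx3cl1, a membrane-bound chemokine of neurons, rose by 0.65 and Ccl25 by 0.51, and Cxcr2, Ccr2, Ccr1, Ccl6 and Ccl3 fell, with differences of -4.46, -3.75, -3.31, -3.11 and -2.81. In the Ms4a family 11 of 19 genes were lower and 0 higher, with Ms4a6c and Ms4a4c at -4.02 and -3.98 beside Ms4a1.

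Enzymes that metabolise foreign compounds followed no single direction. Of 82 cytochrome P450 genes 10 were higher (12.2%) and 15 lower (18.3%), where 28.3% and 18.1% of all genes were. Their median was 0.06, with Cyp2s1 at 0.96 and Cyp1a2, Cyp4f18 and Cyp2f2 at -2.59, -2.57 and -2.11. Of 42 glutathione and conjugation enzymes 18 were lower (42.9%) and 3 higher (7.14%), with a median of -0.07. The sulfotransferase Sult1e1 and the glutathione transferases Gstp1 and Gstm1 fell, with differences of -2.91, -2.47 and -2.08, and Sult4a1, a sulfotransferase of neurons, rose by 0.74. Of 48 keratins 8 were lower (16.7%) and 5 higher (10.4%), neither above the share of all genes. Krt18, Krt23 and Krt8 of simple epithelia fell, with differences of -2.45, -1.96 and -1.51, and the rises did not exceed 0.30. The keratin median of 0.05 turned to -0.01 without replicate 2, and the count of higher keratins was 12 after quantile normalization and 0 without replicate 1. Of 44 collagens 0 were called by limma, 0 of them higher and between 0 and 2 lower across the alternatives, with a median of -0.06 that turned to 0.065 after quantile normalization and to 0.01 without replicate 4. Of 7 heat shock genes 4 were lower and 0 higher, Hspa1a and Dnajb1 by the most at -1.32 and -1.25, and cyclic loess called all 7 lower.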
